A study of Mus musculus with 9 samples.

Results

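Genes of the neutrophil-attracting programme, 10 in all, were followed across a pair of mouse pancreatic cancer cell lines, in culture and in tumours. They were the CXC chemokines Cxcl1, Cxcl2, Cxcl3, Cxcl5 and Cxcl15, the growth factor genes Csf2 and Csf3, the cytokine gene Il1a, and the secreted defence proteins Lcn2 and Saa3. These 10 genes, of 49671 in each count table, were taken by symbol, and all 10 were found. The set was chosen by function and by the CPM measured in these same libraries, in which Cxcl3 and Lcn2 were higher in knockout cultures and lower in knockout tumours. Differences between knockout and wild-type libraries are therefore given here for these genes as a description, without a test.

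The lines were KPCWT, with wild-type genotype (WT), and KPC49bKO, a knockout of CD49b (KO). CD49b is integrin alpha 2, encoded by Itga2, and with integrin beta 1 it forms a collagen receptor. Each genotype was represented by 1 line, so the knockout cannot be told apart from other differences between the lines, and whether KPC49bKO is a single clone is not given in the sources used here. Both lines were kept in serum-containing medium and harvested near confluence (2 WT and 2 KO culture libraries), or implanted under the skin of syngeneic C57BL/6 mice, whose own cells can form part of a tumour (3 WT and 2 KO tumour libraries). Tumours were broken up with enzymes before RNA extraction and cultures were not, and the batch tag in the labels is the same as the setting. The age of the mice, and whether each tumour came from a separate mouse, are not given, so p-values measure only the spread between these libraries. The data columns number the KO tumours 1 and 3, and these names are used here.

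Neutrophils leave the blood along gradients of CXC chemokines of the ELR type, which bind the receptor CXCR2 on their surface. Cxcl1, Cxcl2, Cxcl3 and Cxcl5 belong to this type, and Cxcl15 is a relative best known from lung epithelium. Csf3 encodes G-CSF, which drives neutrophil production in the marrow, and Csf2 encodes GM-CSF, which supports neutrophils and other myeloid cells. Interleukin 1 alpha, from Il1a, acts through the receptor Il1r1 and switches on such chemokines through NF-kB. Lipocalin 2 (Lcn2) captures bacterial iron carriers, and serum amyloid A3 (Saa3) is an acute phase protein made outside the liver. In pancreatic cancer, tumour cells themselves are a known source of CXCR2 ligands.

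The 5 CXC genes lie in 1 cluster on chromosome 5, from 90759360 to 90905938 (146579 bases, GENCODE M21 on GRCm38), in the order Cxcl5, Cxcl3, Cxcl15, Cxcl1 and Cxcl2, all on the plus strand. Cxcl1 ends 10755 bases before Cxcl2 begins. Csf2 lies on chromosome 11 (54247271 to 54249667, minus strand) and Csf3 on the same chromosome (98701263 to 98703629, plus strand). Il1a lies on chromosome 2 (129299610 to 129309972, minus strand), as does Lcn2 (32384633 to 32388252, minus strand), and Saa3 on chromosome 7 (46711998 to 46715700, minus strand). These positions span whole genes.

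Upstream sequences were available for 8 of the 10 genes, from RefSeq on GRCm38.p6. They are shown for the neighbouring chemokines Cxcl1, Cxcl2 and Cxcl3, whose windows share a run of 11 bases, and for Lcn2. Over the 9 libraries, whose values were also used to choose Lcn2, its level ran closest to that of the transcription factor gene Cebpb. A link between these genes was not tested. Each chemokine stretch covers bases -150 to -31 from the start site (chr5:90891095-90891214 for Cxcl1, chr5:90903749-90903868 for Cxcl2 and chr5:90785951-90786070 for Cxcl3, plus strand). The Lcn2 stretch covers bases -227 to -198 (chr2:32387937-32387966, read on the minus strand) and lies in an exon of a longer Lcn2 transcript. Capitals mark matches to an NF-kB motif (GGG, then 3 bases of any kind, then TTCC) in the chemokines and to the C/EBP motif TTGCNNAA in Lcn2, on either strand, with overlapping matches joined.
Cxcl1: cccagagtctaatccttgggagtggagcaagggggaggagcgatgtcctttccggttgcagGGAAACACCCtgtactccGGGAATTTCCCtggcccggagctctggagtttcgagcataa
Cxcl2: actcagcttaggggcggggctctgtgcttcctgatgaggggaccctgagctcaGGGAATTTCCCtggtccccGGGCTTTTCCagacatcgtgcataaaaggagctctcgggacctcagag
Cxcl3: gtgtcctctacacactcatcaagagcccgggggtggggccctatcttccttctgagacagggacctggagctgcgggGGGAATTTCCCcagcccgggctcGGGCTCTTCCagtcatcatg
Lcn2: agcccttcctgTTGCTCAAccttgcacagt

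The run GGGAATTTCCC, which matches the NF-kB motif on both strands, began at -71 in Cxcl1, -97 in Cxcl2 and -73 in Cxcl3. A further NF-kB match stood at -89 in Cxcl1, -78 in Cxcl2 and -50 in Cxcl3. None of the other 5 windows, of 250 bases each, held the NF-kB letters, which occurred in 4.65% of 32851 promoter windows of that length. The C/EBP letters were found in the windows of Lcn2 (-216), Csf2 (-145) and Saa3 (-99), and in 9.56% of all windows. These matches describe letters only, and binding was not measured. Only these fixed patterns were searched, so a window without a match may still hold sites of other sequence.

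Total counts ran from 16032912 to 21247023 per library. Levels are CPM, that is counts relative to library size, scaled by TMM over all 9 libraries, with the SD. Itga2, the targeted gene, stood at 168.4 and 134.9 CPM in WT cultures, 96.6 and 103.9 in KO cultures, 119.4, 143.7 and 136.9 in WT tumours, and 44.6 and 64.1 in KO tumours, with the KO libraries below all WT libraries in either setting. Fibroblast markers, 10 genes summed, reached at most 2.59 CPM in any culture and at least 444.1 CPM in any tumour, so the tumour libraries hold transcripts of stromal genes that the cultures nearly lacked. The 10 epithelial markers summed to between 12300.8 and 13659.7 CPM in the cultures, to 5271.1 to 6524.0 CPM in WT tumours and to 8766.3 to 11413.3 CPM in KO tumours. In such bulk libraries fewer cells of a type and less RNA per cell cannot be told apart. WT tumour 3 stood above the other WT tumours for several of the 10 genes, and results that rest on it are given with and without it.

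**Figure D1:**
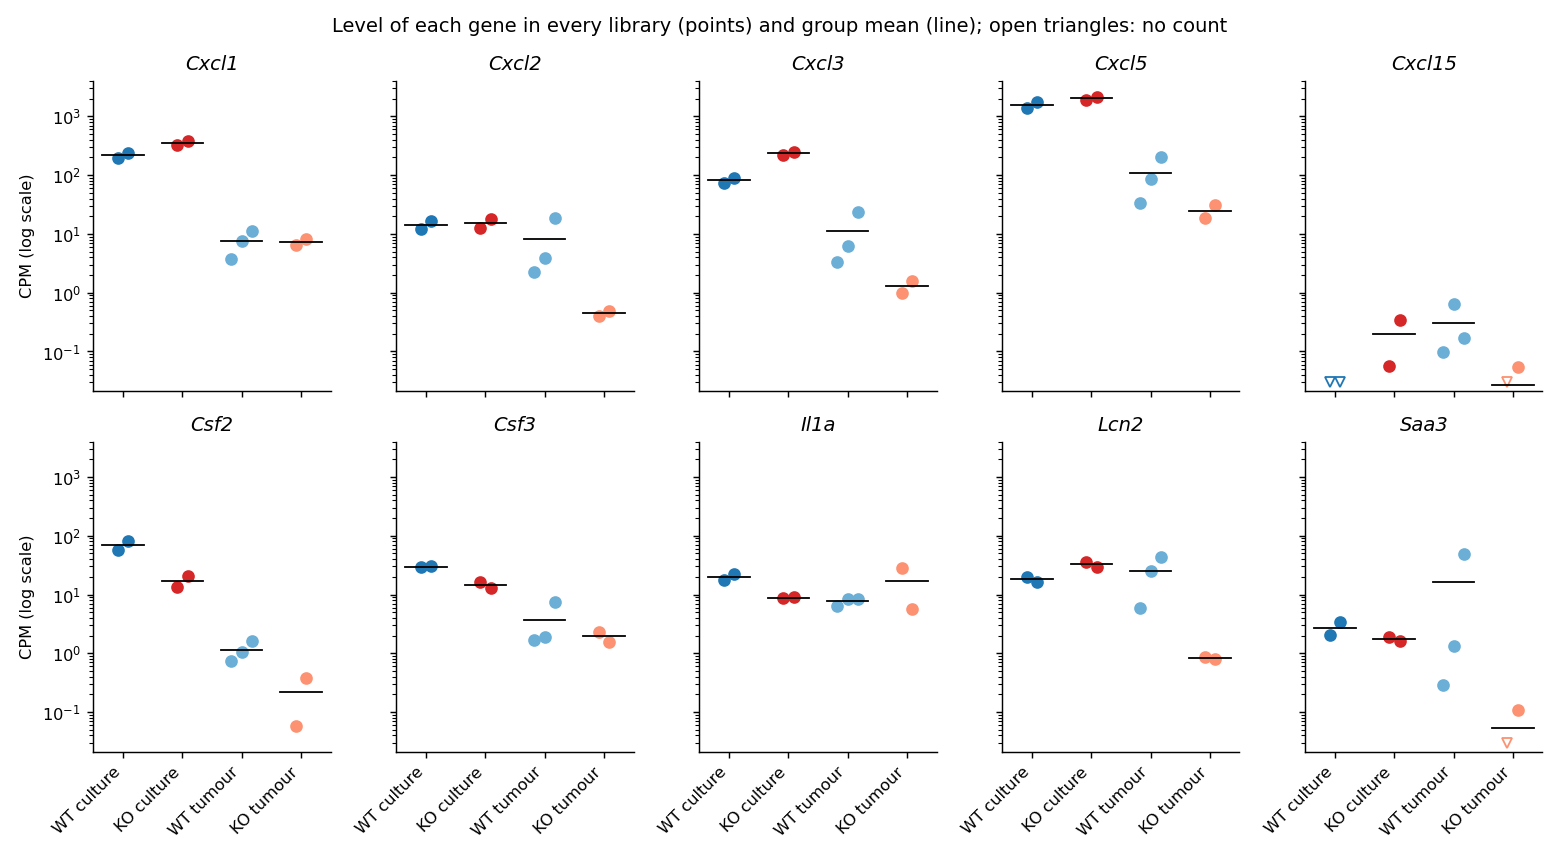
Level of each of the 10 genes in CPM (log axis) in every library, in 4 groups, with the group mean as a line and open triangles where a library had no count. In the tumours Lcn2 lies at 0.877 and 0.811 CPM in KO against 5.79 to 44.1 CPM in WT, while in culture the KO points lie above the WT points.

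Among the genes compared per kilobase of exon, Cxcl5 was the most abundant in all 4 groups. In WT cultures it stood at 851.5 ± 134.8 CPM per kb (SD, n = 2), followed by Cxcl1 at 116.0 ± 15.4, Csf2 at 86.1 ± 21.6, Cxcl3 at 23.4 ± 2.87, Csf3 at 21 ± 0.264 and Il1a at 10.0 ± 1.66. Cxcl2 (6.98 ± 1.52) and Lcn2 (6.97 ± 0.912) came next and overlapped, and Saa3 (1.04 ± 0.373) was lowest of the genes with counts.

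The order in KO cultures, on the same scale, placed Cxcl3 (67.7 ± 5.11) above Csf2 (21.4 ± 6.52) and Lcn2 (12.6 ± 1.76) above Csf3 (10.4 ± 1.65), the last pair overlapping. Cxcl5 at 1085.2 ± 116.1 and Cxcl1 at 185.9 ± 21.5 CPM per kb kept the top places. In the WT tumours Cxcl5 averaged 57.7 ± 46.3 CPM per kb (n = 3) and was the highest of the genes in each tumour. The other genes apart from Cxcl15 averaged from 9.56 ± 7.31 (Lcn2) to 1.42 ± 0.562 CPM per kb (Csf2) there, and the ranges of neighbours in that order overlapped. In KO tumours the order was Cxcl5 (13.2 ± 4.62), Il1a (8.66 ± 8.22), Cxcl1 (3.91 ± 0.675) and Csf3 (1.38 ± 0.385), where Il1a overlapped with both Cxcl5 and Cxcl1, and the other genes averaged 0.366 CPM per kb or less.

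The KO over WT comparison in culture shows the difference between the lines without host cells. Of the 9 genes that passed the filter on low counts, 4 had both KO cultures above both WT cultures (Cxcl1, Cxcl3, Cxcl5 and Lcn2) and 4 had both below (Csf2, Csf3, Il1a and Saa3). Over all 13573 genes tested these shares were 32.7% and 29.2%. The choice of genes used this contrast, so nothing is read from these counts.

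Cxcl3 measured 74.8 and 89.0 CPM in WT, against 224.1 and 249.4 CPM in KO. The groups lay far apart, and Cxcl3 had the largest positive difference of the 9 genes in culture, a log2 fold change of 1.49 (SE 0.16), or 2.81-fold. Cxcl1 measured 197.1 and 237.9 CPM in WT against 320.1 and 377.1 CPM in KO, a log2 fold change of 0.64 (SE 0.17). Cxcl5 measured 1408.7 and 1763.9 CPM against 1868.8 and 2174.7 CPM, again without overlap but by a log2 fold change of only 0.31 (SE 0.20). Cxcl2, at 12.2 and 16.7 CPM in WT and 12.8 and 18.2 CPM in KO, overlapped between the lines (log2 fold change 0.06, SE 0.23, and -0.21 to 0.30 without 1 library). Cxcl1, Cxcl2 and Cxcl3, whose windows share the NF-kB letters, ran from an overlap to 2.81-fold in the same cultures. A link between these letters and the levels was not tested.

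Lcn2, the iron-carrier binding protein, measured 20 and 16.6 CPM in WT cultures and 36.3 and 29.7 CPM in KO cultures. Both KO values lay above both WT values, by a log2 fold change of 0.81 (SE 0.20). Saa3 was low everywhere in culture, with 2.02 and 3.40 CPM in WT and 1.89 and 1.60 CPM in KO (log2 fold change -0.66, SE 0.38). Cxcl15 was close to absent, with no count in the WT cultures and 1 and 5 counts in the KO cultures, and no difference was fitted for it in any comparison.

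Csf2, which encodes GM-CSF, measured 56.7 and 81.1 CPM in WT against 13.4 and 20.8 CPM in KO. This was the largest difference of the 9 genes in culture, a log2 fold change of -2.06 (SE 0.24), or 4.16-fold lower in KO. Csf3, which encodes G-CSF, measured 29.5 and 30.0 CPM against 16.3 and 13.0 CPM (log2 fold change -1.06, SE 0.19). Il1a measured 17.4 and 22.1 CPM against 8.57 and 8.97 CPM (log2 fold change -1.21, SE 0.21). For all 3 the KO cultures lay below the WT cultures, opposite in direction to Cxcl1, Cxcl3 and Lcn2.

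In the tumours the picture differed. Of the 9 genes that passed the filter, none had both KO tumours above all WT tumours, and 6 had both below (Cxcl2, Cxcl3, Cxcl5, Csf2, Lcn2 and Saa3). Over the 16257 genes tested those shares were 27.3% and 26.4%, and nothing is read from the counts because the choice of genes used this contrast too.

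Lcn2 stood at 5.79, 25.3 and 44.1 CPM in the WT tumours and at 0.877 and 0.811 CPM in the KO tumours. The lowest WT tumour was still several times above the KO tumours, and the log2 fold change was -4.90 (SE 0.95), or 29.9-fold lower in KO. Without WT tumour 3 it was -4.23 (SE 0.83). Of the genes with more than 3 counts in the KO tumours it had the largest difference between the tumours.

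Cxcl2 measured 2.24, 3.97 and 18.7 CPM in WT tumours and 0.409 and 0.487 CPM in KO tumours. The KO tumours lay below all WT tumours, by a log2 fold change of -4.21 (SE 1.10), and by -2.81 (SE 0.48) without WT tumour 3. Cxcl3 measured 3.36, 6.23 and 23.6 CPM against 0.993 and 1.57 CPM, a log2 fold change of -3.12 (SE 0.91), and -1.93 (SE 0.47) without WT tumour 3. Cxcl5 measured 34.2, 85.7 and 202.6 CPM against 18.6 and 30.8 CPM, a log2 fold change of -2.14 (SE 0.71), and -1.32 (SE 0.49) without WT tumour 3. For these chemokine genes the direction thus held without WT tumour 3, with smaller differences.

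Cxcl1, the most abundant of the cluster after Cxcl5 in culture, did not share this difference. It stood at 3.79, 7.44 and 11.4 CPM in WT tumours and at 6.43 and 8.22 CPM in KO tumours, so the groups overlapped (log2 fold change -0.06, SE 0.45, and 0.34, SE 0.40, without WT tumour 3, and 0.10 without KO tumour 1). Its neighbour Cxcl2, 10755 bases away, was 18.6-fold lower in KO in the same libraries.

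The growth factor genes were low in all tumours. Csf2 measured 0.730, 1.06 and 1.62 CPM in WT and 0.0584 and 0.378 CPM in KO, without overlap (log2 fold change -2.35, SE 0.74). The 8 counts in the KO tumours left this value loose, at -4.14 without KO tumour 3 and -1.60 without KO tumour 1. Csf3 measured 1.65, 1.91 and 7.45 CPM in WT against 2.34 and 1.57 CPM in KO. The groups overlapped, and the log2 fold change of -0.93 (SE 0.72) became 0.09 (SE 0.38) without WT tumour 3.

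Il1a ran from 6.42 to 8.51 CPM in the WT tumours (6.42, 8.40 and 8.51) and stood at 28.6 and 5.62 CPM in the KO tumours, 1 above and 1 below all WT tumours. Its log2 fold change of 1.13 (SE 0.60) turned to -0.49 without KO tumour 1. Saa3 measured 0.292, 1.31 and 48.3 CPM in WT tumours and 0 and 0.108 CPM in KO tumours. The 2 counts in the KO tumours gave a KO to WT ratio of 0.00308 (95% exact counting interval 0.000372 to 0.0111, counting error only), most of it from WT tumour 3, without which Saa3 did not pass the filter. Cxcl15 had 2, 13 and 4 counts in WT tumours and 0 and 1 in KO tumours (ratio 0.0945, 95% exact counting interval 0.00227 to 0.595).

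**Figure D2:**
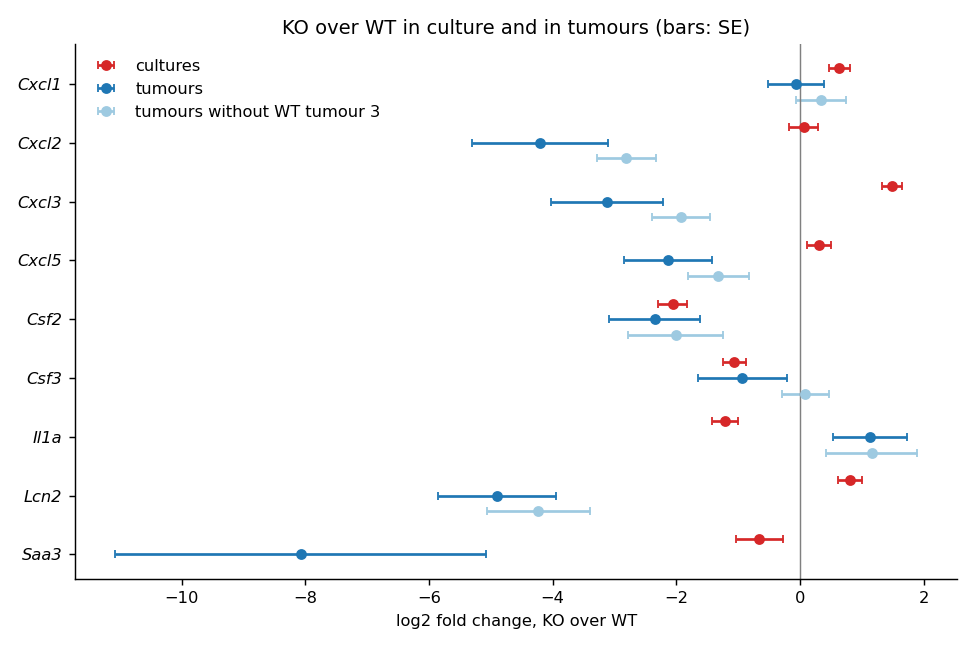
Log2 fold change of KO over WT (horizontal axis, bars are SE) for 9 genes in cultures, in tumours and in tumours without WT tumour 3. Cxcl3 and Lcn2 lie at 1.49 and 0.81 in culture and at -3.12 and -4.90 in tumours, while Csf2 lies at -2.06 and -2.35. Saa3 could not be fitted without WT tumour 3.

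Set side by side, 3 of the 9 genes that passed the filter had every KO library above WT in culture and below WT in tumours, namely Cxcl3, Cxcl5 and Lcn2. Cxcl15, too low to pass, had the same order of libraries on few counts. Of 13147 genes tested in both settings 455 did so (3.46%), and nothing is read from this share because the set was chosen with that pattern in view. The KO over WT log2 fold change in tumours minus that in culture, from 1 fit of all 9 libraries, was -5.74 (SE 0.99) for Lcn2, -4.64 (SE 0.97) for Cxcl3, -4.30 (SE 1.18) for Cxcl2 and -2.47 (SE 0.79) for Cxcl5. Without WT tumour 3 these values were -5.03, -3.40, -2.85 and -1.61. For the growth factor genes the sign depended on single libraries, with -0.31 (SE 0.71, and -2.12 to 0.45 without 1 library) for Csf2 and 0.09 (SE 0.80, and -0.26 to 1.16 without 1 library) for Csf3. Il1a stood at 2.30 (SE 0.71, and 0.73 without KO tumour 1).

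Neutrophils make Cxcl2, Lcn2 and Il1a as well, so their markers are given beside these values. The 21 neutrophil markers summed to 57.1, 84.3 and 167.0 CPM in the WT tumours and to 14.7 and 36.9 CPM in the KO tumours, so the KO tumours lay below. In the cultures the sum was 65.2 to 65.3 CPM in WT and 4.45 to 5.56 CPM in KO, nearly all of it lactoferrin (Ltf), an iron-binding granule protein whose transcript these cultures also contained. The sum without Ltf and Mmp9, a reduction chosen after the values were seen, was at most 1.37 CPM in any culture. It stood at 16.6, 27.3 and 103.4 CPM in WT tumours and at 13.1 and 31.3 CPM in KO tumours, which overlapped.

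Of the 12 neutrophil markers tested in the tumours 0 rose and 3 fell in KO (edgeR), against 8.78% and 10.9% of all genes, and 9 did not pass. Their median log2 fold change was -1.79 against -0.01 over all genes. The 3 that fell were Mmp9 (-3.38), the gelatinase B gene, Ltf (-5.51) and Clec4d (-2.70), a myeloid lectin. Whichever WT tumour was left out, 2 markers fell. The markers that were named whatever their p did not pass where they could be tested. S100a9, the calprotectin subunit, measured 0.438, 1.91 and 13.6 CPM in WT against 1.29 and 1.84 CPM in KO tumours (log2 fold change -1.78, edgeR adjusted p = 0.356). Csf3r, the G-CSF receptor, measured 2.48, 4.42 and 20.3 CPM against 2.75 and 8.43 CPM (-0.73, adjusted p = 0.609), and Cxcr2 0.486, 0.704 and 9.75 CPM against 0.701 and 1.51 CPM (-1.74, adjusted p = 0.39). All 3 turned sign without WT tumour 3, to 0.38, 0.66 and 0.86. S100a8 was at -2.17 (adjusted p = 0.25) and -0.19 without it. Ly6g, with at most 0.383 CPM in any tumour, and Elane, with no count in any library, could not be tested. The part of neutrophil RNA in the differences of Lcn2 and the chemokines was not tested.

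**Figure D3:**
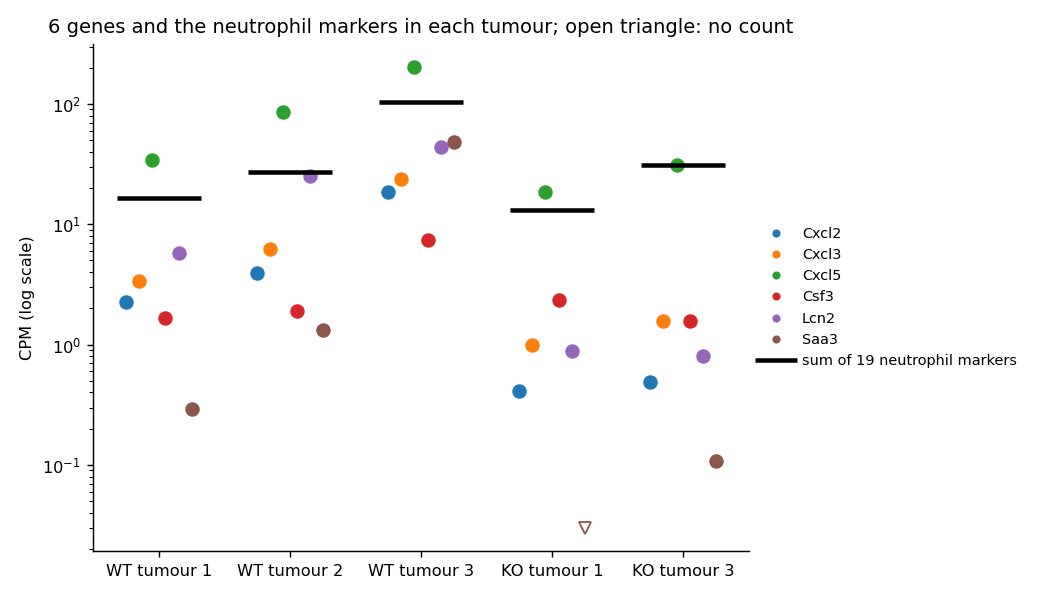
Levels in CPM (log axis) of 6 genes and the sum of 19 neutrophil markers (bars) in each of the 5 tumour libraries, with an open triangle for no count. WT tumour 3 has the highest marker sum, 103.4 CPM, and the highest level of all 6 genes, and the sums of the lines overlap (16.6 to 103.4 CPM in WT, 13.1 and 31.3 CPM in KO). The 2 markers left out of the sum, Ltf and Mmp9, both fell in KO tumours.

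WT tumour 3 exceeded the higher of WT tumours 1 and 2 by 37.0-fold for Saa3, 4.72-fold for Cxcl2, 3.90-fold for Csf3, 3.78-fold for Cxcl3, 2.36-fold for Cxcl5 and 1.75-fold for Lcn2. For Il1a the ratio was 1.01. The fibroblast marker sum was also highest there, at 3181.0 CPM, against 1876.7 and 1234.0 CPM in WT tumours 1 and 2 and 444.1 and 704.1 CPM in the KO tumours. Of 10 fibroblast markers 5 fell in KO tumours by the edgeR test at an adjusted p of 0.05 (Postn, Col1a1, Col1a2, Col3a1 and Lum), against 10.9% of all genes, but 1 without WT tumour 1 and 1 without KO tumour 1. Of 11 macrophage and monocyte markers 0 passed, against 8.78% higher and 10.9% lower of all genes, and 1 rose without WT tumour 3. The summed macrophage markers overlapped, with 230.0 to 389.7 CPM in WT and 278.7 to 414.5 CPM in KO. The part of these cells in the results was not tested.

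Between culture and tumour, most of the 9 measured genes were lower in the tumours of both lines. In the WT line 6 fell and 0 rose, against 29.6% lower and 36.1% higher of 16793 genes, and in the KO line 7 fell and 0 rose, against 26.4% and 32.9%. The counts include Cxcl3 and Lcn2, whose values in these groups were known when the set was chosen and which are given without a p. Nothing is read from these counts, because the set was chosen with CPM from the same libraries in view. The p-values given below for the other genes carry the same limit and lend no independent support. For each gene the KO contrast minus the WT contrast is the difference between settings, which is given above without a test. The setting cannot be told apart from the batch tag, RNA of host cells and the enzyme treatment. The 2 lines' contrasts compare different libraries, but both came from the same fit of all 9 libraries. Their tests share the spread estimated in that fit, so the p-values of the 2 lines are not independent.

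Csf2 fell most in the WT line, from 68.9 ± 17.3 CPM in culture (n = 2) to 1.13 ± 0.449 CPM in tumours (n = 3), a log2 fold change of -5.90 (SE 0.36, edgeR adjusted p = 1.18e-06). In the KO line it fell from 17.1 ± 5.21 to 0.218 ± 0.226 CPM (-6.21, SE 0.53, adjusted p = 7.49e-06, and -8.03 without KO tumour 3). Cxcl1 fell with a log2 fold change of -4.84 in the WT line (SE 0.33, adjusted p = 2.02e-06) and -5.57 in the KO line (SE 0.41, adjusted p = 3.09e-06). Both genes lost nearly all of their culture level in either line, with no overlap between settings.

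Cxcl5 averaged 1586.3 ± 251.1 CPM in WT culture and 107.5 ± 86.3 CPM in WT tumours, a fall of log2 -3.88 (SE 0.54, edgeR adjusted p = 0.000107, and -4.73 without WT tumour 3), and went from 2021.7 ± 216.4 to 24.7 ± 8.61 CPM in the KO line (-6.35, SE 0.72, adjusted p = 3.86e-05). Csf3 fell in both lines, by 3.0 on the log2 scale in WT (SE 0.50, adjusted p = 0.000364, and by 4.06 without WT tumour 3), and with a log2 fold change of -2.91 in KO (SE 0.61, adjusted p = 0.00199). Cxcl3 stood lower by a log2 fold change of -2.87 in WT tumours (SE 0.55, and -4.10 without WT tumour 3) and -7.51 in KO tumours (SE 0.84).

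Cxcl2 and Lcn2 were lower in the KO tumours than in KO culture, and in the WT line both depended on WT tumour 3. Cxcl2 went from 14.4 ± 3.15 CPM in WT culture to 8.31 ± 9.06 CPM in WT tumours (-0.79, SE 0.65, edgeR adjusted p = 0.30), but passed as a fall without WT tumour 3 (-2.22, adjusted p = 0.000234), and also with no filter on low counts. In the KO line it went from 15.5 ± 3.83 to 0.448 ± 0.0548 CPM (-5.09, SE 0.96, adjusted p = 0.00106). Lcn2 went from 18.3 ± 2.39 to 25.1 ± 19.2 CPM in WT (log2 fold change 0.46, SE 0.56) and from 33.0 ± 4.62 to 0.844 ± 0.0463 CPM in KO (-5.28, SE 0.81). In WT the direction of Lcn2 turned without WT tumour 3, to -0.24.

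Il1a fell in the WT line from 19.8 ± 3.28 to 7.78 ± 1.18 CPM (-1.34, SE 0.47, edgeR adjusted p = 0.0264). That call was lost with scaling by library totals and without WT culture 1, WT culture 2 or WT tumour 1. In the KO line Il1a stood at 8.77 ± 0.281 CPM in culture and 17.1 ± 16.2 CPM in tumours (0.96, SE 0.53, adjusted p = 0.14, and -0.63 without KO tumour 1). Saa3 passed in neither line (WT 2.62, SE 1.46, adjusted p = 0.134, and KO -4.80, SE 2.77, adjusted p = 0.155), and the WT value turned to -1.76 without WT tumour 3.

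**Figure D4:**
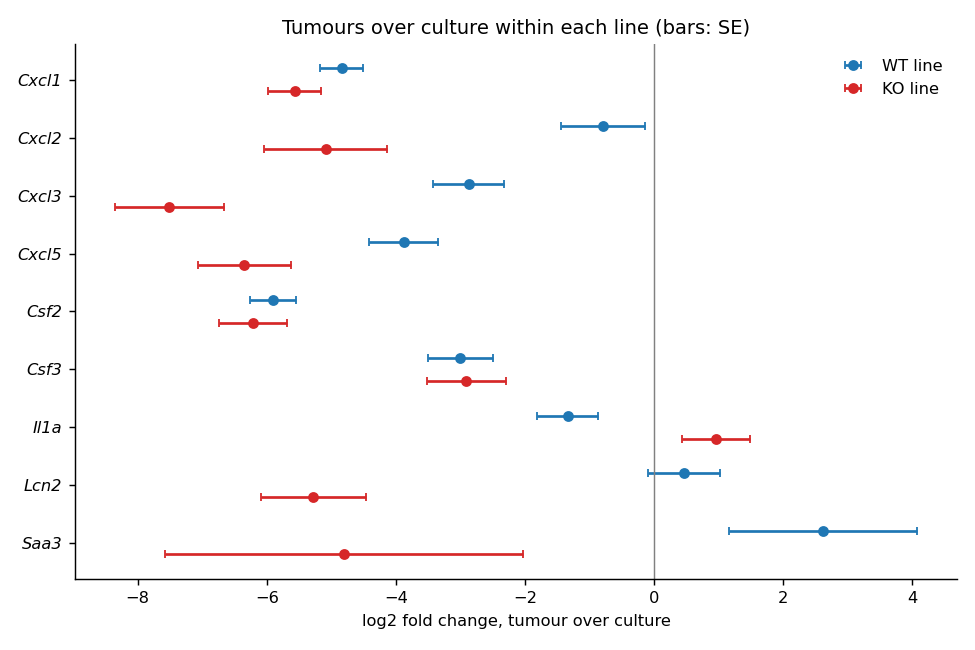
Log2 fold change of tumours over culture (horizontal axis, bars are SE) within the WT and the KO line for 9 genes. Csf2 lies at -5.90 in WT and -6.21 in KO, Csf3 at -3.00 and -2.91 (-4.06 in WT without WT tumour 3), and Lcn2 at 0.46 in WT and -5.28 in KO.

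The receptors and decoys through which these factors act were measured next, as a list of 15 genes. In culture 7 could be tested, and 0 rose and 5 fell in KO (edgeR), against 9.27% and 16.2% of all genes, with a median log2 fold change of -1.13 against 0 over all genes. Il1rap, the co-receptor that interleukin 1 signalling needs, measured 3.03 and 4.44 CPM in WT cultures and had no count in the KO cultures, at least 40.2-fold lower (floor of 3 counts over the group). Slc22a17, described as a receptor for lipocalin 2, fell by 3.70 on the log2 scale (edgeR adjusted p = 0.000184), Tlr2 by 1.99 (adjusted p = 0.00173) and Il1rn, the interleukin 1 receptor antagonist, by 1.13 (adjusted p = 0.000381). Il1r1 fell by 0.47 (adjusted p = 0.0455), a call lost without any 1 of the 4 cultures. Cxcr2 had at most 0.0653 CPM and Csf3r no count in the cultures, so these cancer cells showed next to no transcript of the receptors of CXCR2 ligands and G-CSF.

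In the tumours 12 receptor genes could be tested, of which 1 rose and 3 fell in KO, against 8.78% and 10.9% of all genes, and 5 fell without KO tumour 3. Il1rap fell by 3.28 (from 5.90 ± 1.58 to 0.606 ± 0.443 CPM, edgeR adjusted p = 0.0101), Il1rn by 1.39 (adjusted p = 0.00547) and Slc22a17 by 2.20 (adjusted p = 0.0164, not kept on leaving out WT tumour 1 or WT tumour 2). Il1r1 rose by 0.49 (adjusted p = 0.0356), but not without WT tumour 1, WT tumour 2, WT tumour 3 or KO tumour 1. Il1rap, Il1rn and Slc22a17 thus fell in both settings. Il1rap, without a count in the KO cultures, was detected in both KO tumours (0.292 and 0.919 CPM).

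Of the 27 inducers of these chemokines, cytokines of the interleukin 1, TNF and interleukin 17 pathways and their transcription factors, 23 could be tested in culture. Of these 5 rose and 2 fell in KO (edgeR, median 0.28), against 9.27% and 16.2% of all genes. Il33, an alarmin, rose from 148.4 and 148.2 CPM to 552.6 and 585.5 CPM (log2 fold change 1.90, edgeR adjusted p = 4.14e-06). The NF-kB subunit genes Relb (1.09, adjusted p = 0.00212) and Nfkb2 (0.74, adjusted p = 0.0158, not kept on leaving out WT culture 2 or KO culture 1) rose, as did the interleukin 17 receptor chain gene Il17rc (0.73, adjusted p = 0.0143, lost without the same libraries). Tnf went the other way, from 6.83 and 9.08 CPM to 0.835 and 0.903 CPM (-3.23, adjusted p = 1.95e-05). Nfkbiz, a nuclear cofactor of NF-kB needed for Lcn2 induction, fell by 0.56 (adjusted p = 0.0259, not kept on leaving out WT culture 1, WT culture 2 or KO culture 2). Il6 rose from 0.190 and 0.327 CPM to 1.00 and 0.903 CPM (1.82, adjusted p = 0.0379), a call lost without any 1 of the 4 cultures.

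In the tumours, against 8.78% higher and 10.9% lower of all genes, 3 of 23 inducer genes rose and 3 fell in KO (median -0.19). The C/EBP transcription factor genes were among those that fell. Cebpb stood at 33.8, 55.1 and 51.6 CPM in WT tumours and at 18.8 and 17.2 CPM in KO tumours (-1.39, SE 0.23, edgeR adjusted p = 0.0108). Cebpd stood at 18.4, 30.9 and 30.6 CPM against 11.4 and 6.81 CPM (-1.56, SE 0.33, adjusted p = 0.0216, not kept on leaving out WT tumour 2, WT tumour 3 or KO tumour 3). Both KO tumours lay below every WT tumour for either gene. In culture neither passed (Cebpb 0.44, adjusted p = 0.0947, and Cebpd 0.28, adjusted p = 0.368).

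The difference between the settings passed for both C/EBP genes, with a KO effect in tumours minus culture of -1.86 for Cebpb (SE 0.31, edgeR adjusted p = 0.00708) and -1.87 for Cebpd (SE 0.42, adjusted p = 0.0283). The Cebpb call held without each library in turn, and that of Cebpd was lost without any 1 of the 4 cultures or WT tumour 2. Over all 16793 genes 1.54% were lower by this measure and 4.15% higher, or 5.69% in either direction. Nfkbiz fell by 0.70 in tumours (adjusted p = 0.0229, not kept on leaving out WT tumour 1, WT tumour 2 or KO tumour 1). Il18, an epithelial cytokine, rose from 6.86, 6.94 and 3.75 CPM to 44.2 and 18 CPM (2.40, adjusted p = 0.014), and Il17rc (0.72, adjusted p = 0.00972, lost without WT tumour 2) and Nfkb2 (0.66, adjusted p = 0.0278, not kept on leaving out WT tumour 1, WT tumour 2, KO tumour 1 or KO tumour 3) rose. Il1b, with 6.61, 12.5 and 34.2 CPM in WT against 1.52 and 11.7 CPM in KO, missed the threshold (-1.45, adjusted p = 0.312), as did Tnf (-1.0, adjusted p = 0.0856).

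**Figure D5:**
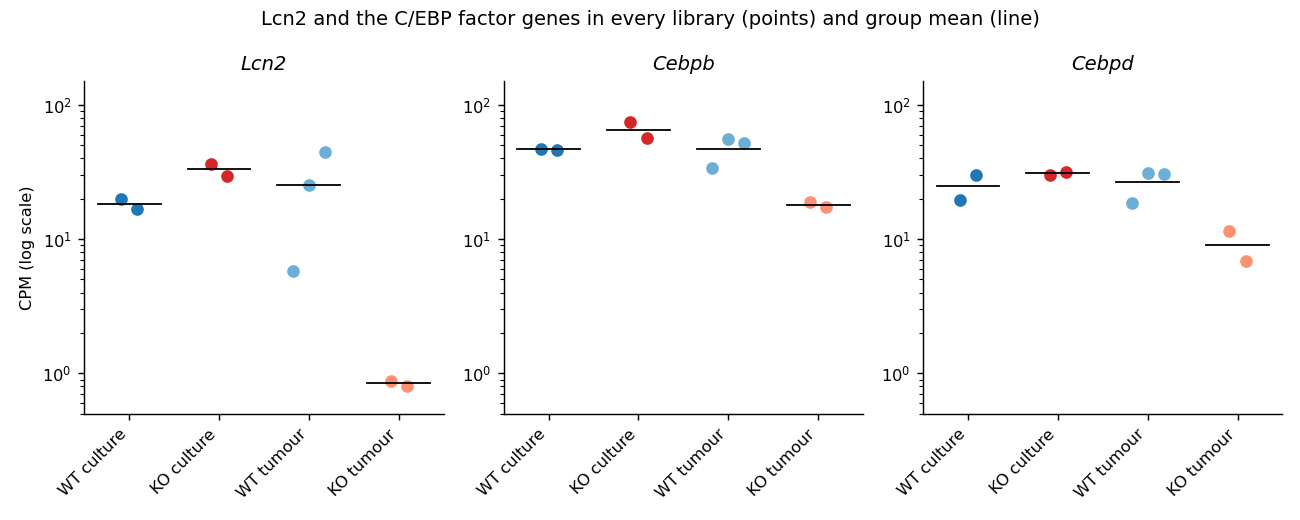
Levels of Lcn2, Cebpb and Cebpd in CPM (log axis) in every library, with group means as lines. The KO tumours are lowest for each gene, at 0.877 and 0.811 CPM for Lcn2, 18.8 and 17.2 CPM for Cebpb and 11.4 and 6.81 CPM for Cebpd.

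As a description of likeness, the log2 CPM of each gene with a mean of at least 5 CPM (10913 genes) was correlated with that of Lcn2 and Cxcl3 over the 9 libraries. Cebpb was closest to Lcn2 (Pearson r = 0.975), followed by Fads6 (0.945), Tada2a (0.944), Cxcl2 (0.940) and Cebpd (0.939). For Cxcl3 the closest were Elovl5 (0.989), Bckdhb (0.987), Zfpm2 (0.986), Prmt5 (0.986) and Cxcl5 (0.985). Cxcl1 ranked 257th for Cxcl3 (0.927), Cxcl2 403rd (0.912), and Il1a stood at 0.0649. The 9 points share their libraries and fall into culture and tumour groups, so high values are common among genes that differ between the settings. Lcn2 and Cxcl3 were also chosen for their KO pattern in these libraries, so genes that share that pattern rank high. A link of Cebpb or the C/EBP letters to the level of Lcn2 was not tested.

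Of 18 other CXC chemokine and haematopoietic growth factor genes 9 could be tested in culture. Of these 2 rose and 3 fell in KO (median -0.02), against 9.27% and 16.2% of all genes. Ppbp, another CXCR2 ligand, fell from 7.27 and 7.58 CPM to 0.445 and 0.695 CPM (-3.75, edgeR adjusted p = 1.07e-05). Lif fell by 1.57 (adjusted p = 0.000213) and Il34 by 0.89 (adjusted p = 0.00736), while Kitl, stem cell factor, rose by 1.01 (adjusted p = 0.00091) and Cxcl17 from 0.316 and 0.392 CPM to 2.45 and 2.5 CPM (2.74, adjusted p = 0.00091). In tumours 14 could be tested, and 1 rose and 2 fell (median -0.10), against 8.78% and 10.9% of all genes. Cxcl14, absent from all cultures, fell from 20.7, 17.2 and 14.3 CPM to 2.45 and 3.68 CPM (-2.52, adjusted p = 0.0037), Il34 fell by 1.10 (adjusted p = 0.0221, not kept on leaving out WT tumour 1 or WT tumour 2), and the interferon-induced Cxcl11 rose by 2.69 (adjusted p = 0.0383, not kept on leaving out WT tumour 1, WT tumour 2, WT tumour 3 or KO tumour 3). Ppbp, at 0.730, 1.61 and 1.87 CPM in WT against 0 and 0.487 CPM in KO, missed the threshold (-2.49, adjusted p = 0.118).

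Among 20 other acute phase and iron-withholding genes, the functional company of Lcn2 and Saa3, 8 could be tested in culture. Of these 2 rose and 5 fell in KO (median -1.06), against 9.27% and 16.2% of all genes. Ltf fell from 64.5 and 63.8 CPM to 3.67 and 5.14 CPM (-3.92, edgeR adjusted p = 1.96e-07), Pglyrp1, an antibacterial peptidoglycan-binding protein, by 2.93 (adjusted p = 3.25e-05) and Cp, ceruloplasmin, by 1.27 (adjusted p = 7.15e-05). Hpx, the haem carrier hemopexin, rose by 2.03 (adjusted p = 0.000125) and Lbp by 1.09 (adjusted p = 0.000342). Lcn2 and Ltf, both iron-withholding proteins, thus stood on opposite sides of WT in the KO cultures.

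In the tumours 14 of these genes could be tested, with 2 higher and 3 lower in KO (median -1.91), and 1 lower without WT tumour 3. Over all genes 8.78% were higher and 10.9% lower. Ltf fell from 11.4, 20.4 and 32.7 CPM to 0.117 and 0.811 CPM (-5.51, edgeR adjusted p = 0.00623), on the same side as Lcn2. Slpi, a protease inhibitor of neutrophils and epithelia, fell by 4.94 (adjusted p = 0.0384) from 0.486, 1.66 and 3.45 CPM to 0 and 0.108 CPM, a call not kept on leaving out KO tumour 1 or KO tumour 3, and the gene did not pass the filter without WT tumour 3. Lrg1 fell by 2.04 (adjusted p = 0.0324, lost without any 1 of the WT tumours or KO tumour 1). Hpx rose by 3.75 (adjusted p = 0.0147, lost without WT tumour 1) and Fth1, ferritin heavy chain, by 0.84 (adjusted p = 0.0138, lost without WT tumour 1).

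Sequence shared between genes bears on how reads were counted. Of the 75-base stretches of Cxcl2 transcripts 4.57% also occur in Cxcl3, and 2.78% the other way round, so a small part of their reads could be assigned to either. Il1a shares 7.95% with the gene model Gm14023 and Csf2 3.17% with Gm12223, whereas Cxcl1, Cxcl15, Csf3 and Lcn2 share none with another gene. The treatment of reads with several positions is not given in the sources used here.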

How the data were processed

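The deposited raw counts per Ensembl gene, 1 table per setting, were made by the authors from reads deduplicated by unique molecular identifiers, per the labels' protocols. The submitters' processing notes name fastp 0.23.1, STAR 2.5.2b, featureCounts, Subread 1.5.2, DESeq2 and GRCm38, with no role or order. The sources used here do not give the annotation release or strand setting. The normalized and rlog tables were not used. Of 49671 genes 49412 have a GENCODE M21 symbol, and 1 listed gene, Il36a, was not matched.

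The genes and lists were chosen with earlier results of these data known. After filterByExpr (minimum count 10, minimum total 15) and TMM scaling, edgeR 4.0.16 (R 4.3.3) gave quasi-likelihood F tests, adjusted by Benjamini-Hochberg over all genes tested, with a threshold of 0.05. KO was compared with WT within each setting, and all other contrasts came from 1 fit of the 9 libraries. Printed log2 fold changes use a prior count of 0.125, likeness a prior count of 2, and SEs are log2 fold changes over the root of F. Of each list, up to 6 genes with the smallest p in a comparison were named, with S100a8, S100a9, Csf3r, Cxcr2, Ly6g, Il1b, Tnf and Il6 wherever measured. Elane was named after its values were seen.

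On simulated counts the fits found 88% of 2-fold and 100% of 4-fold changes in culture (13442 genes). In tumours they found 87% and 100% (16187 genes), and for the difference 45% and 99% (16034 genes). The simulation gave every gene the same fixed spread, changed only genes with ample counts and held no outlying library. Its shares therefore do not apply to genes with few counts or to genes that spread more between these tumours. There C3, 5.42-fold lower in KO, missed the threshold (edgeR adjusted p = 0.0941). Replicates differed by more than counting noise (chi-square per gene 5.999 to 39.16), so no library is a copy. Alternatives were RLE or library-total scaling, no filter, DESeq2 1.42.0, other fits, the replicate block, and leaving out each library.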

Additional observations from a re-analysis of the deposited data

Results flagged for a closer look

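For 3 of the 9 genes that passed the filter every KO library lay above WT in culture and below WT in tumours. The KO over WT log2 fold change in tumours minus that in culture was -4.64 for Cxcl3, -2.47 for Cxcl5 and -5.74 for Lcn2, given with no test because the genes were chosen with it known.

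Of the other listed genes, 1 of 12 receptors and decoys, 4 of 24 inducers, 2 of 14 other CXC chemokine and growth factor genes, 1 of 14 acute phase genes and 5 of 10 epithelial markers had a KO effect that differed between the settings by the interaction term in edgeR, against 5.69% of all 16793 genes. No marker of neutrophils, macrophages, fibroblasts, endothelium or T and NK cells did. The effect in tumours minus that in culture was higher for Il18 (3.42, adjusted p = 0.00957), Tnf (2.20, adjusted p = 0.0298), Pglyrp1 (2.03, adjusted p = 0.0289), Lif (1.28, adjusted p = 0.0279) and Il1r1 (0.93, adjusted p = 0.0195). It was lower for Cxcl17 (-2.53, adjusted p = 0.0171), Cebpd (-1.87, adjusted p = 0.0283) and Cebpb (-1.86, adjusted p = 0.00708). The call of Cebpb held in all 14 alternatives, and each of the other 7 in these lists was lost in 2 to 6 of 14, in every case without at least 1 of the culture libraries. Among the epithelial markers it was higher for Muc1 (1.66, adjusted p = 0.00575), Krt19 (1.49, adjusted p = 0.00902), Cldn7 (6.92, adjusted p = 0.00909), Krt8 (1.20, adjusted p = 0.0201) and Epcam (4.99, adjusted p = 0.0259), and 2 to 6 of these markers passed without 1 library (2 without KO culture 1). In the KO cultures Cldn7 had no count and Epcam had 1, so their fitted values depend on the prior count. Both were also lower in KO than in WT tumours, Cldn7 at 1.14 ± 0.533 against 20.9 ± 3.14 CPM and Epcam at 37.6 ± 4.72 against 110.2 ± 44.8 CPM. Their higher values here mean a smaller fall in tumours than in culture, not a rise in KO tumours.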

How the results depend on the processing

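In culture 3461 genes passed, 7587 with the replicate block and 2130 to 2985 without 1 library. The replicate 1 minus 2 differences of the WT and KO cultures correlated over genes (r = 0.231). The labels give no shared source for the numbers and 2 pairs are too few to show one, so the cultures were not taken as paired. In tumours 3206 passed and 1171 to 4143 without 1 library. No paired analysis was possible because the tumour groups share only 1 number in the labels that a data column also carries. For the difference 955 passed, 1875 with no filter, 1625 by DESeq2, 1100 with the replicate block in culture and 288 to 1651 without 1 library. The WT setting contrast gave 11032 calls in the fit of all 9 libraries. In a fit of the 2 WT groups alone it gave 11355, and 11816 with the block added to that fit.

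Signs turned as follows. For the 10 genes, KO over WT without 1 library ranged from -0.21 to 0.30 for Cxcl2 in culture, and in tumours from -0.39 to 0.34 for Cxcl1, -1.29 to 0.09 for Csf3 and -0.49 to 1.89 for Il1a, and its difference between settings from -2.12 to 0.45 for Csf2 and -0.26 to 1.16 for Csf3. Among markers and inducers, KO over WT in tumours ranged from -2.33 to 0.38 for S100a9, -1.71 to 0.66 for Csf3r and -2.37 to 0.86 for Cxcr2, the positive values without WT tumour 3. The difference between settings ranged from -2.26 to 0.28 for S100a8, -1.72 to 0.69 for Csf3r and -4.19 to 0.96 for Cxcr2 (positive without WT tumour 3, and 0.80 for Cxcr2 without KO culture 1), and from -5.97 to 1.09 for Il1b (positive without KO culture 1). WT tumours over culture ranged from -0.24 to 0.93 for Lcn2, -1.76 to 3.20 for Saa3 and -0.76 to 1.66 for Il6, negative without WT tumour 3. The fit of the WT groups alone with the replicate block gives WT tumour 3 a term of its own. It put Lcn2 at -0.53, Saa3 at -1.85 and Cxcl2, of unchanged sign, at -2.28. With library totals Itga2 was at 0.28. KO tumours over culture ranged from -0.63 without KO tumour 1 to 1.70 for Il1a. Other causes were not tested. Scaling by library totals moved the median of all genes by 0.47 and 0.43 on the log2 scale in the WT and KO setting contrasts. Saa3 and Cxcl15 in KO tumours are limited by depth.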
